A study of Arabidopsis thaliana with 32 samples.

Results

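Combined low R/FR and warmth at 3 h is the comparison of wild-type Arabidopsis thaliana seedlings (Col-0) moved to 30FR with seedlings left in 21WL, read across all expressed genes. It rests on 4 of the 32 libraries of the series, 2 biological replicates in 30FR and 2 in 21WL, chosen by their labels and not by any measured value. Of 33602 genes in the count table, 25886 had at least 1 count, and the 20145 with more than 1 CPM (counts scaled to library size) in at least 2 libraries were tested.

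All seedlings of the 4 groups used at 3 h were wild type, grew on plates for 3 days in continuous white light of about 70 µE at 21 °C, and were harvested whole, about 25 to a sample. 30FR seedlings spent the 3 h at 30 °C in white light with added far-red light (R/FR of 0.6), 30WL seedlings at 30 °C in white light, 21FR seedlings at 21 °C with the same far-red light, and 21WL seedlings stayed where they had grown. The same 4 groups were also sampled at 1, 6 and 24 h, each time with its own 21WL libraries. Every group held 2 libraries of poly(A) RNA, so each mean rests on a pair of seedling pools. In whole seedlings, fewer cells of a type and less RNA per cell cannot be told apart.

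Low R/FR is the light signature of neighbouring leaves. It turns the photoreceptor phyB to its inactive form, which releases the PIF transcription factors, and these switch on auxin synthesis genes such as YUC8 and a set of quickly responding regulators such as PIL1 and ATHB2. Warmth also weakens phyB and promotes PIF4, and more strongly raised temperature recruits heat shock factors (HSFs), which bind heat shock elements in front of chaperone genes. Anthocyanins, the red and purple pigments made by a branch of the flavonoid pathway, are known to decline in warm plants.

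The 4 libraries held 22500180 and 24107071 counts in 30FR and 12012774 and 18387789 counts in 21WL. Replicates of these groups differed more widely than those of 21FR: of 12868 genes above 10 CPM in 30FR, 62 were over 2-fold higher in replicate 1 and 63 in replicate 2, of 12848 genes in 21WL 115 and 76 were, and of 12742 in 21FR only 10 and 3. Genes of dehydration parted the 21WL replicates. RAB18, a dehydrin, had 10.6 and 3.63 CPM in 30FR, 29.0 and 17.2 CPM in 30WL, 108 and 114 CPM in 21FR, with 90.39 and 1.20 CPM in 21WL. LTI65 (RD29B) had 23.1 and 4.30 CPM in 30FR, 16.5 and 16.3 CPM in 30WL, 137 and 53.8 CPM in 21FR, with 81.3 and 1.71 CPM in 21WL. Replicate 2 of 21WL was the lowest of all 8 libraries for both genes. In 30FR 19 of 56 chloroplast and mitochondrial genes above 10 CPM were over 2-fold lower in replicate 1, such as ATCG00530 with 1.41 CPM beside 50.9 CPM in replicate 2. The defining markers of root hair, endodermis, shoot mesophyll, phloem and epidermis were all kept and none was called in either direction. Of 3 guard cell markers the channel KAT1 was called higher (log2 fold change 1.56). MYB60 and FAMA, the other guard cell markers, were not called, and the median of the 3 was -0.07. Of 8 seed reserve genes 7 passed the filter, their summed level was 2.24 and 0.632 CPM in 30FR, against 7.44 and 0.914 CPM in 21WL, and none was called. The part of these library differences in the results was not tested.

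A gene was called when its adjusted p (Benjamini-Hochberg) was below 0.05 and its change larger than 2-fold, that is, an absolute log2 fold change above 1. By this rule 420 genes were higher in 30FR than in 21WL (2.08% of those tested) and 409 were lower (2.03%). On the adjusted p alone 2470 of the 20145 genes tested were higher and 2374 lower. The list counts below are to be read beside these backgrounds. The median absolute log2 fold change was 1.43 among the genes that rose and 1.35 among those that fell, and the upper tail was longer: 28 genes rose by more than 4 on the log2 scale, and 7 fell by more than 4. In all 420 genes that rose, both 30FR libraries stood above both 21WL libraries, and in 404 of the 409 that fell both stood below. Over all tested genes 5690 stood above and 5448 below in the same way. The plot of change against level shows chaperone genes at the top and anthocyanin genes at the bottom of this range.

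**Figure D1:**
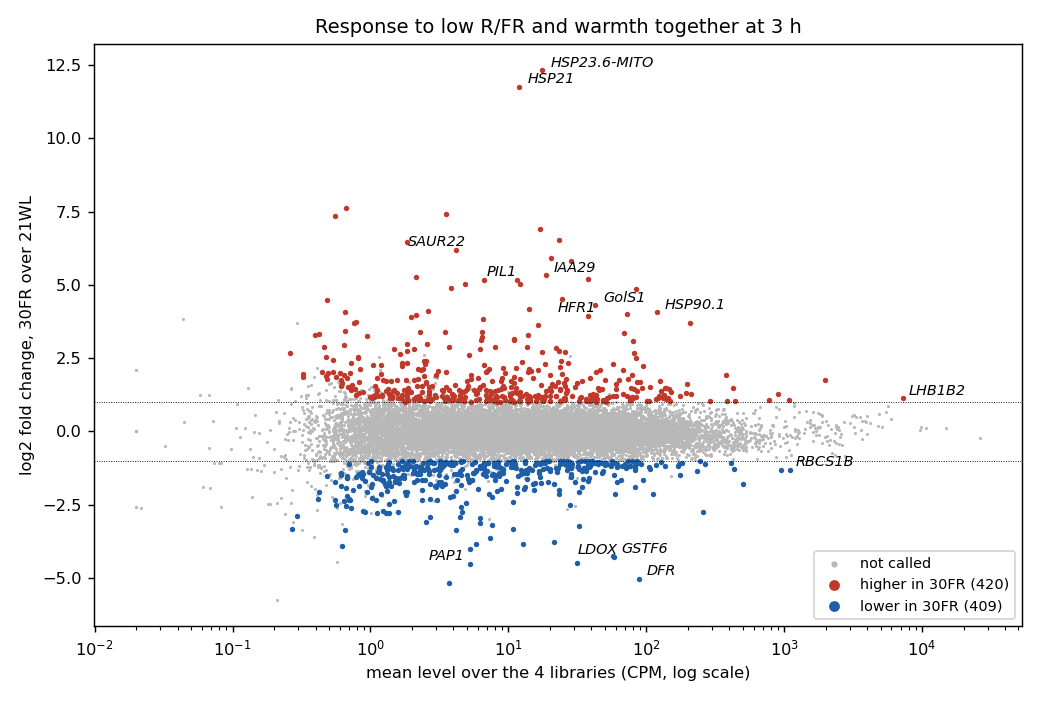
Log2 fold change of 30FR over 21WL at 3 h (vertical axis) against the mean level over the 4 libraries (horizontal axis, CPM on a log scale) for all 20145 genes tested; red points are the 420 genes called higher, blue points the 409 called lower, grey points the rest, and dotted lines mark log2 fold changes of 1 and -1. HSP23.6-MITO and HSP21 lie at the top because both 21WL libraries held 0 counts of them, so their heights depend on the prior count of the fit, and DFR, PAP1, LDOX and GSTF6 lie near the bottom.

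The genes that mark the 2 signals were present in the 30FR libraries. PIL1, a helix-loop-helix protein (HLH) that is among the first genes to answer far-red light, had 20.4 and 24.8 CPM in 30FR, against 0.519 and 0.686 CPM in 21WL. Its log2 fold change was 5.18 ± 0.29 (SE), or 36.2-fold, with an adjusted p of 7.28e-10. HFR1, a negative regulator of PIFs, had 56.6 and 85.2 CPM in 30FR, against 3.37 and 5.54 CPM in 21WL (log2 fold change 3.95 ± 0.28). ATHB2, a homeodomain-leucine zipper (HD-Zip) factor of shade growth, had 47.5 and 41.6 CPM in 30FR, against 7.96 and 5.83 CPM in 21WL (2.71 ± 0.19). The replicates of each group lay close together for all 3 genes, far from those of the other group. Of 9 HLH and HD-Zip II factors of the shade response, 6 rose and 0 fell, against 2.08% and 2.03% of all genes, with a median log2 fold change of 1.09 beside 0.00 for all genes. PAR1, HAT1 and ATHB4 were the other members that rose (1.55 ± 0.30, 1.09 ± 0.20 and 1.08 ± 0.24). PIL1 lies at chr2:19295431-19297858, minus strand, HFR1 at chr1:465616-467880, minus strand, and ATHB2 at chr4:9449114-9450905, plus strand (RefSeq, build TAIR10.1).

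Photoreceptors and PIFs moved less. PHYA, the phytochrome that senses far-red light, was the only called member of 7 phytochromes and cryptochromes, with 274 and 283 CPM in 30FR, against 116 and 110 CPM in 21WL (log2 fold change 1.30 ± 0.14). PHYB had 164 and 151 CPM in 30FR, against 113 and 99.1 CPM in 21WL, a difference of 0.57 ± 0.08 that passed the adjusted p (4.25e-05) and not the fold limit. PIF4 had 83.4 and 66.2 CPM in 30FR, against 29.6 and 35.9 CPM in 21WL (1.19 ± 0.24, adjusted p = 0.00128), and was the only PIF of 6 called. With the second libraries alone it came to 0.87 (adjusted p = 0.126). PIF7 had 18.4 and 17.9 CPM in 30FR, against 20.4 and 21.2 CPM in 21WL (-0.20 ± 0.18, adjusted p = 0.454). Among 12 genes of COP1, SPA, HY5 and phyA signalling, PKS2 and PKS4, plasma membrane partners of phytochromes and phototropins, rose (1.26 ± 0.14 and 1.94 ± 0.36) and none fell.

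Auxin genes were higher in 30FR at the points of synthesis and early response. YUC8, a flavin monooxygenase of the last step of auxin synthesis, had 20.4 and 21.6 CPM in 30FR, against 5.02 and 3.31 CPM in 21WL (log2 fold change 2.36 ± 0.28, adjusted p = 4.65e-06). YUC9, of the same family, had 5.94 and 5.44 CPM in 30FR, against 1.38 and 1.37 CPM in 21WL (2.04 ± 0.28). These were 2 of 10 synthesis genes kept, none of which fell, and the median of the list was 0.10. IAA29, an Aux/IAA repressor, lies at chr4:15583332-15584903, plus strand. It had 30.5 and 42.4 CPM in 30FR, against 1.30 and 0.628 CPM in 21WL (5.32 ± 0.41, or 40.1-fold), the largest rise of 25 kept members of its family. IAA2 and IAA7 rose by 1.45 ± 0.16 and 1.29 ± 0.10, and IAA19 by 1.85 ± 0.28, so 4 Aux/IAA genes rose, 0 fell, and the family's median was 0.02. Of 7 auxin inactivation genes kept, GH3.5 (WES1) and GH3.6 (DFL1), which conjugate auxin to amino acids, rose (1.75 ± 0.17 and 1.21 ± 0.14). No auxin transporter of 11 was called, although their median was 0.45 and 6 passed the adjusted p on the higher side. Of all 20145 genes 2470 passed on that side.

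Small auxin up RNA (SAUR) genes encode short proteins that promote cell expansion. Of 80 genes with that name, 54 passed the filter. Of these 17 rose (31.5%, against 2.08% of all genes) and 0 fell (against 2.03%), and the median was 0.53. SAUR22 had 7.69 and 8.64 CPM in 30FR, against 0.173 and 0.0571 CPM in 21WL, where it held 2 counts and 1 count. The ratio of the summed counts, scaled to library size, was 79.5 (exact 95% interval 27.0 to 387, counting error only). Its neighbour SAUR20 had 10.8 and 17.4 CPM in 30FR, against 2.42 and 1.54 CPM in 21WL (log2 fold change 2.87 ± 0.29). AT5G18030, another SAUR gene, had 9.88 and 13.8 CPM in 30FR, against 1.30 and 0.971 CPM in 21WL (3.41 ± 0.36). The groups did not overlap for these, as for all 420 genes that rose, and SAUR19, SAUR23 and SAUR24 rose as well. The genes of this cluster are near copies, and reads that map to several places were not counted for any gene, so the levels are partial. Leaving out any 1 of the 4 libraries left 14 or 15 SAUR genes higher.

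**Figure D2:**
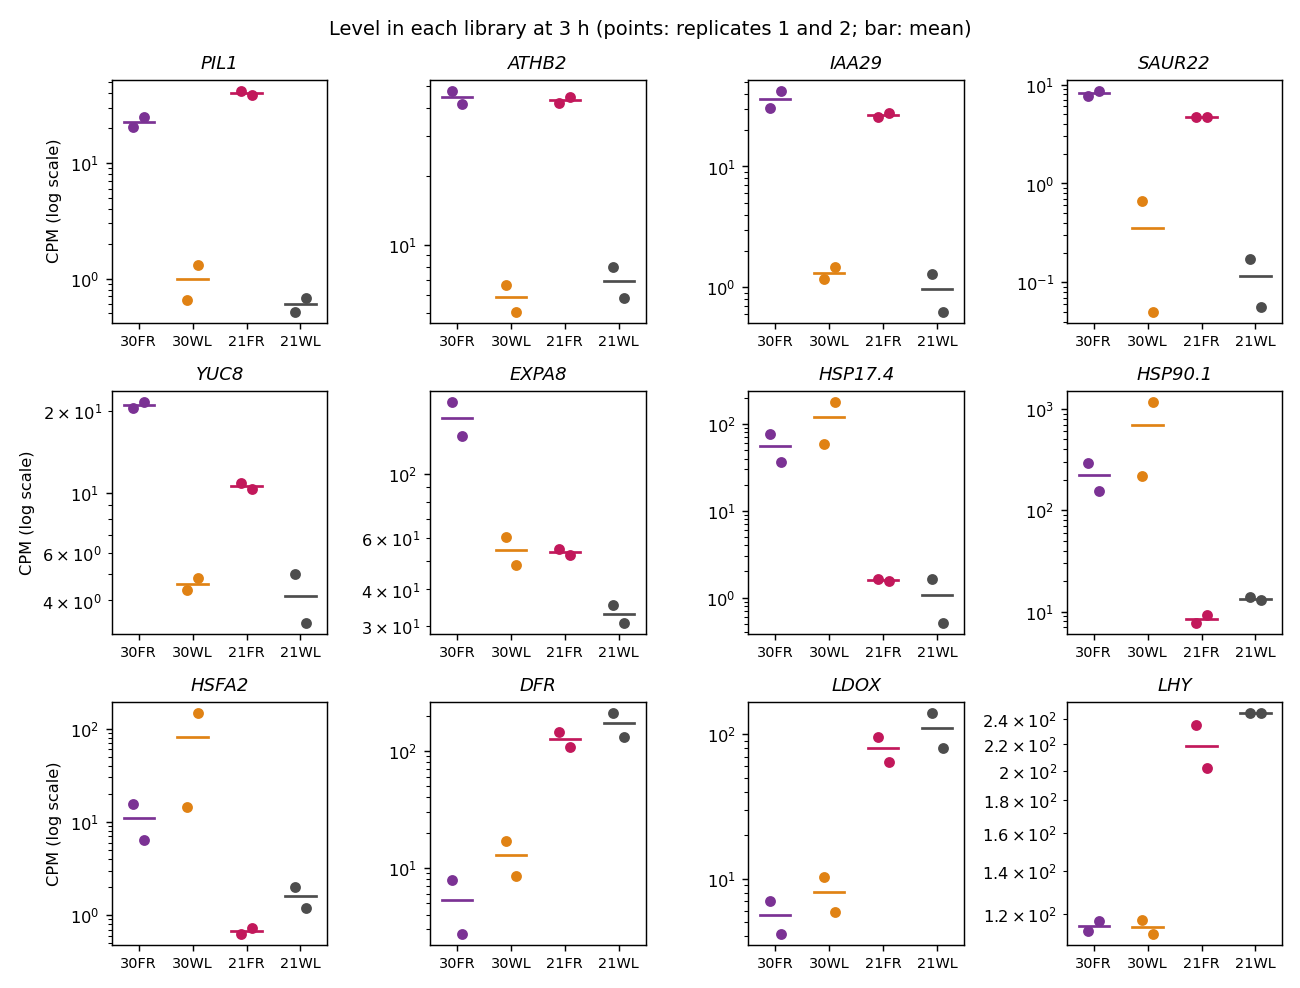
Level of 12 genes in each library at 3 h (CPM on a log scale, a separate scale in each panel) in 30FR, 30WL, 21FR and 21WL; points are replicates 1 and 2 and bars their mean. PIL1, ATHB2, IAA29 and SAUR22 are high in both far-red groups, HSP17.4, HSP90.1 and HSFA2 in both groups at 30 °C, and DFR and LDOX are low in both groups at 30 °C.

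Other growth hormones were touched at single genes. Of 18 gibberellin genes kept, 3 rose (16.7%, against 2.08% of all genes) and 1 fell (5.56%, against 2.03%). GAI, a DELLA repressor of gibberellin response, had 62.6 and 57.8 CPM in 30FR, against 26.5 and 24.6 CPM in 21WL (log2 fold change 1.24 ± 0.11). GA2OX4 and GA2OX1, which inactivate gibberellin, rose by 1.74 ± 0.41 and 1.56 ± 0.36, both at levels below 3 CPM. GA2OX8, of the same enzyme class, was at 0.730 and 0.801 CPM in 30FR, against 1.90 and 1.89 CPM in 21WL (-1.30 ± 0.34), and its adjusted p of 0.00803 became 0.0528 without replicate 1 of 30FR. Of 11 ethylene synthesis genes, 3 rose and none fell. ACO4 (EFE), an ACC oxidase, had 260 and 230 CPM in 30FR, against 105 and 106 CPM in 21WL (1.22 ± 0.12). ACS11 and ACS8, ACC synthases, rose by 1.76 ± 0.41 and 2.40 ± 0.55, and ACS8 had an adjusted p of 0.0602 without replicate 2 of 21WL. The brassinosteroid synthesis gene CPD had 156 and 118 CPM in 30FR, against 62.8 and 69.0 CPM in 21WL (1.06 ± 0.11). Its log2 fold change was 0.83 without replicate 1 of 30FR, under the limit of 1, and PRE1, the other brassinosteroid-related gene called (1.15 ± 0.32), had an adjusted p of 0.0788 without that library, so that 0 of 16 genes of this list were then called.

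Cytokinin genes moved both ways. Of 15 genes kept, 5 fell and 3 rose, and the median was -0.72. ARR7, a type-A response regulator that cytokinin induces, had 0.876 and 1.73 CPM in 30FR, against 6.23 and 9.31 CPM in 21WL (log2 fold change -2.57 ± 0.42). ARR15, of the same class, had 0.0487 and 0.379 CPM in 30FR, against 1.90 and 1.20 CPM in 21WL (-2.72 ± 0.53). ARR16 (RR16) fell too (-1.29 ± 0.35). The cytokinin oxidases, which degrade the hormone, split: CKX5 had 12.8 and 10.5 CPM in 30FR, against 4.24 and 2.97 CPM in 21WL (1.72 ± 0.32), and CKX7 had 10.1 and 7.17 CPM in 30FR, against 15.2 and 19.9 CPM in 21WL (-1.04 ± 0.22). CKX7 came to -0.82 without replicate 2 of 30FR and -0.83 without replicate 2 of 21WL. CKX6 rose by 1.23 ± 0.23, and by 0.99 without replicate 1 of 21WL. CKX1 (1.13 ± 0.38) had an adjusted p of 0.0318 that became 0.272 without replicate 1 of 30FR and 0.225 without replicate 1 of 21WL.

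Cell wall genes were called in both directions. EXPA8, an alpha-expansin that loosens the wall, had 177 and 136 CPM in 30FR, against 35.3 and 30.7 CPM in 21WL (log2 fold change 2.25 ± 0.22, adjusted p = 8.12e-07). Of 19 expansins kept, EXPA3 (EXP3) was the only other one that rose (1.07 ± 0.17, 0.80 without replicate 1 of 30FR and 0.89 without replicate 2 of 21WL), and the median was 0.01. Among 29 xyloglucan endotransglucosylase/hydrolase (XTH) genes, which cut and rejoin wall polymers, 4 rose and 3 fell. These were 13.8% and 10.3%, against 2.08% and 2.03% of all genes. XTH15 had 89.9 and 102 CPM in 30FR, against 11.5 and 26.7 CPM in 21WL (2.29 ± 0.36). XTH32 had 15.5 and 12.8 CPM in 30FR, against 49.5 and 43.5 CPM in 21WL (-1.72 ± 0.18). XTR6 (2.02 ± 0.45) rose as well and XTH20 (-1.85 ± 0.37) fell. TCH4 (1.56 ± 0.43) and XTH6 (1.14 ± 0.20) also rose, and both missed the rule without replicate 1 of 21WL. TCH4 missed it as well without replicate 2 of 21WL and without replicate 2 of 30FR. XTH31 fell too (-1.1), and came to -0.9 without replicate 2 of 30FR and -0.93 without replicate 2 of 21WL. None of 9 cellulose synthases was called.

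The largest rises were in chaperone genes. All 5 small heat shock protein (sHSP) genes of the list rose (100%, against 2.08% of all genes), with a median log2 fold change of 5.83. Their summed level was 219 and 80.1 CPM in 30FR, against 6.23 and 2.69 CPM in 21WL. The list took genes by symbol, and HSP17.6II, AT1G53540 and HSP23.6-MITO, given below, lie outside it. HSP17.4, a cytosolic sHSP, had 75.9 and 36.5 CPM in 30FR, against 1.64 and 0.514 CPM in 21WL (5.83 ± 0.65, adjusted p = 2.87e-06). HSP17.6II had 44.5 and 23.02 CPM in 30FR, against 0.432 and 0.171 CPM in 21WL (6.90 ± 0.70). AT1G53540, an HSP20-like chaperone, had 68.0 and 24.2 CPM in 30FR, against 0.865 and 0.229 CPM in 21WL (6.54 ± 0.71). HSP17.6A had 61.6 and 19.1 CPM in 30FR, against 1.04 and 0.400 CPM in 21WL (5.92 ± 0.90). In each of these replicate 1 of 30FR was higher than replicate 2, and the groups did not overlap, as in all 420 genes that rose. HSP23.6-MITO, of mitochondria, had 51.2 and 19.2 CPM in 30FR and 0 counts in both 21WL libraries, and was at least 163-fold higher against a floor of 3 counts per library. HSP21, of chloroplasts, had 37.0 and 11.0 CPM in 30FR and 0 counts in both 21WL libraries, at least 112-fold higher by the same floor. With HSP21 at that bound the median of the list was the same. APX2, an ascorbate peroxidase, had 10.4 and 3.63 CPM in 30FR and a single count in the 2 libraries of 21WL. The ratio of the summed counts was 197 (exact 95% interval 35.1 to 7810, counting error only). Without replicate 1 of 30FR 3 of the 5 sHSP genes of the list were called.

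The smallest rise of the sHSP list was that of HSP18.2, with 31.4 and 7.93 CPM in 30FR, against 2.85 and 1.77 CPM in 21WL (3.12 ± 0.71). Larger chaperones rose as well. HSP90.1, the heat-inducible cytosolic HSP90 (chr5:21352557-21355147, plus strand), had 294 and 154 CPM in 30FR, against 13.8 and 12.9 CPM in 21WL (log2 fold change 4.07 ± 0.50, or 16.8-fold). GolS1, a galactinol synthase that HSFs induce, had 110 and 53.0 CPM in 30FR, against 3.98 and 4.17 CPM in 21WL (4.31 ± 0.39). Hop3, which links HSP70 to HSP90, had 161 and 123 CPM in 30FR, against 16.1 and 17.4 CPM in 21WL (3.08 ± 0.26), and HSA32, of long-term heat acclimation, rose by 2.86 ± 0.27. Of 19 genes in the list of HSP70, HSP90, HSP101 and partners 10 rose (52.6%, against 2.08% of all genes) and 0 fell (against 2.03%). The median was 1.72, and 1.05 to 2.16 when any 1 of the 4 libraries was left out. Of 22 members chosen for this list only 19 were matched by name. An HSP70 gene left out in this way, AT3G12580, was itself called higher (log2 fold change 3.71). HSP101, a disaggregase, had 72.1 and 33.1 CPM in 30FR, against 15.6 and 16.3 CPM in 21WL (1.72 ± 0.53, adjusted p = 0.0230). That p was 0.273 without replicate 1 of 30FR, 0.109 without replicate 1 and 0.101 without replicate 2 of 21WL. Of 18 HSF genes 3 rose (16.7%, against 2.08% of all genes) and none fell (against 2.03%), and the median was -0.14. HSFA2, the HSF that prolongs the heat response, had 15.5 and 6.32 CPM in 30FR, against 1.99 and 1.20 CPM in 21WL (2.82 ± 0.87, adjusted p = 0.0213). HSFB2A and HSFB2B, repressor-type HSFs, rose by 1.43 ± 0.33 and 1.12 ± 0.34. Without replicate 1 of 30FR, or without replicate 2 of 21WL, 0 HSF genes were called, and in the fit without replicate 1 of 30FR HSFA2 had a log2 fold change of 2.04 with an adjusted p of 0.198. In the ER chaperone list of 14 genes, ERDJ3A rose (1.67 ± 0.37) and 11 genes passed the adjusted p on the higher side, while BIP3 was low in all 4 libraries, 0.243 and 0.126 CPM in 30FR, against 0.692 and 1.14 CPM in 21WL (adjusted p = 0.0417, and 0.0583 to 0.263 with 1 library left out). Over all 20145 genes 2470 passed the adjusted p on the higher side, the count to set beside the 11 of the ER list. The 2 serine/arginine-rich splicing genes called of 20, SR30 (1.25 ± 0.10) and SR45a (1.49 ± 0.27), rose as well, SR45a by 0.99 without replicate 1 of 30FR.

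Heat shock elements stood close to the start of some of the genes that rose. The stretches below are the 150 bases before the annotated start of each gene on its own strand (RefSeq, build TAIR10.1), and capitals mark a match on either strand to the heat shock element, here GAA, TTC and GAA in a row with 2 free bases between neighbours, or, in SAUR22, to the PBE-box CACATG of PIF proteins, here on the reverse strand. The first 4 were chosen to show the element in genes of the chaperone response, and the last to show the shade element in an auxin-response gene. HSP17.4 at chr3:16984868-16985017 and GolS1 at chr2:19370479-19370628 lie on the minus strand, HSFA2 at chr2:11135474-11135623 and AT1G53540 at chr1:19980149-19980298 on the plus strand, and SAUR22 at chr5:5975088-5975237 on the minus strand.
HSP17.4: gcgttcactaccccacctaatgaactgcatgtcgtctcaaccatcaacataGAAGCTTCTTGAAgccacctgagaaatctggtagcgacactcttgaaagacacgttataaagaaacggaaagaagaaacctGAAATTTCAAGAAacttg
HSFA2: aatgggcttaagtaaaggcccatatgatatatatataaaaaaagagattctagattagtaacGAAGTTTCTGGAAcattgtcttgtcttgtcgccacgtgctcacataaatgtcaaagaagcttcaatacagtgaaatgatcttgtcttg
GolS1: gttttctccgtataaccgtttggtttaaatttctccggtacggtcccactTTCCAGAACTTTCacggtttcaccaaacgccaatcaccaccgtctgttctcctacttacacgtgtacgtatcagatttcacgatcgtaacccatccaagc
AT1G53540: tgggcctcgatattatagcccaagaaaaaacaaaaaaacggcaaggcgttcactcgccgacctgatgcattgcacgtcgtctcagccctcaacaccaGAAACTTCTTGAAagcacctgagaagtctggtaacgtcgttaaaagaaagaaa
SAUR22: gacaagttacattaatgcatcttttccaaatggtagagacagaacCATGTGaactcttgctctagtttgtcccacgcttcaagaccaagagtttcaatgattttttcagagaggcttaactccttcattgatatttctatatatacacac

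The matches began 99 and 18 bases before the start in HSP17.4, 88 in HSFA2, 100 in GolS1, 53 in AT1G53540 and 105 in SAUR22. In the window from 250 bases before to 50 after the start, 17 of 420 genes that rose held a heat shock element (4.05%), against 3 of 405 that fell (0.741%) and 116 of 20036 tested genes (0.579%). HSP23.6-MITO, HSP21, APX2, HSP17.6II and HSP17.6A, all with large rises, were not among these 17. The G-box CACGTG was found in 13.3% of genes that rose, 7.9% of those that fell and 9.04% of all, and the PBE-box in 16.2%, 10.9% and 13.1%. The auxin element TGTCTC was found in 15.2%, 17.8% and 13.8%, and the evening element AAAATATCT of clock genes in 2.62%, 3.46% and 2.97%. All motifs were searched on both strands, and no pair of them shares its letters in full. These shares are descriptions of the letters in the window.

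**Figure D3:**
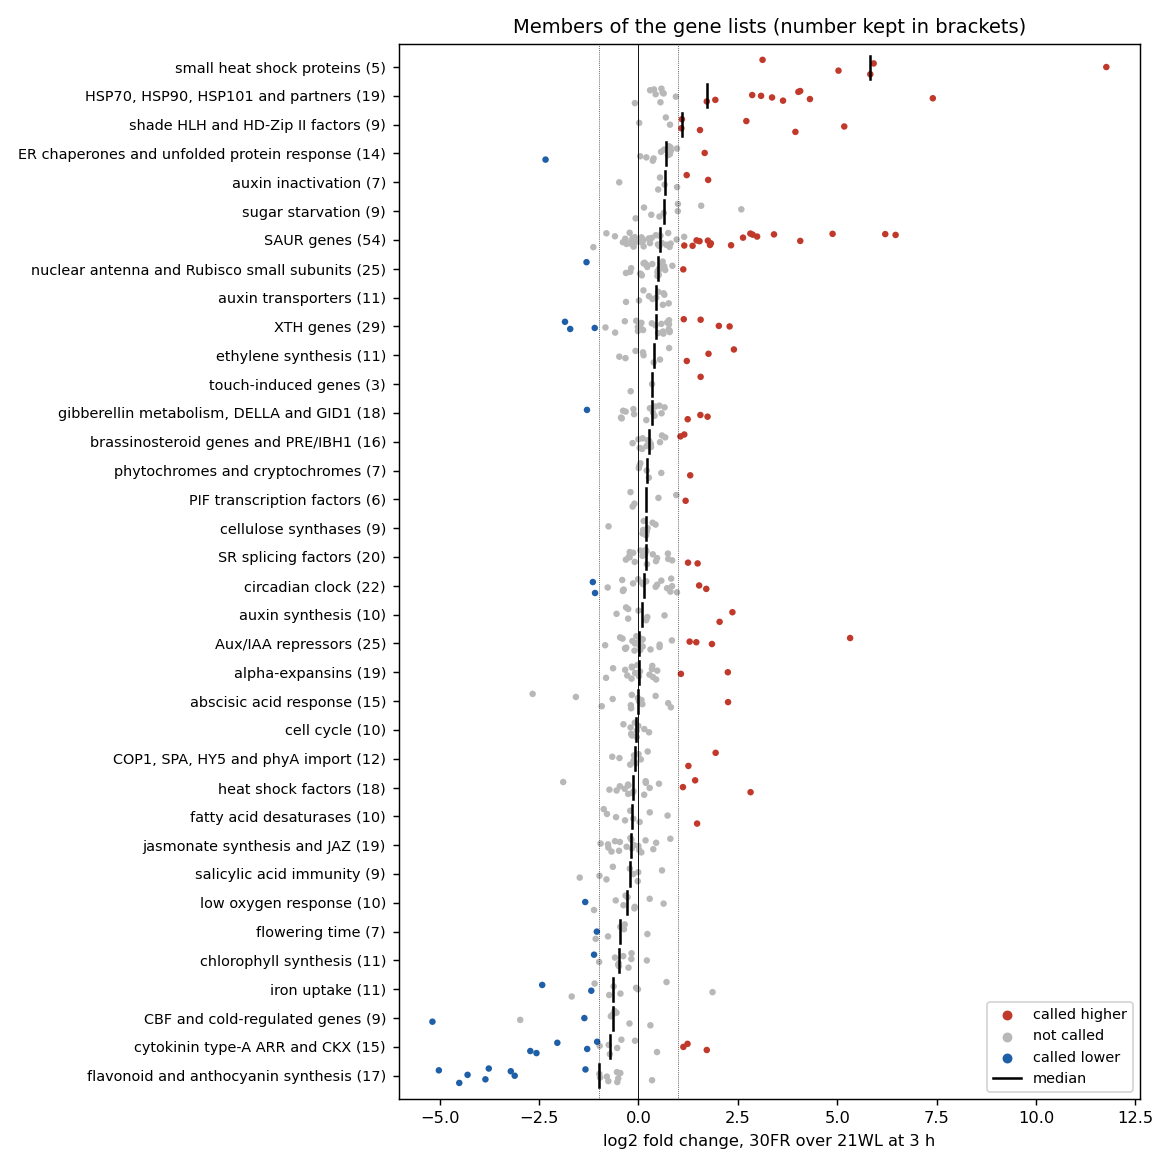
Log2 fold change of 30FR over 21WL at 3 h (horizontal axis) for every kept member of each gene list (rows, with the number kept in brackets), ordered by the median, which the black bar marks; red points are called higher, blue lower, grey not called. Small heat shock proteins lie farthest to the right with a median of 5.83, and flavonoid and anthocyanin genes farthest to the left with a median of -0.99.

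Among genes that fell, anthocyanin synthesis led. Of 17 flavonoid and anthocyanin genes kept, 8 fell (47.1%, against 2.03% of all genes) and 0 rose (against 2.08%). Both 30FR libraries stood below both 21WL libraries in 16 of them, and in 5448 of all 20145 genes. The median log2 fold change of the list was -0.99. DFR, dihydroflavonol reductase (chr5:17164093-17166032, minus strand), had 7.94 and 2.74 CPM in 30FR, against 210 and 132 CPM in 21WL (-5.02 ± 0.68, or 32.5-fold lower, adjusted p = 2.33e-05). LDOX, anthocyanidin synthase, had 7.06 and 4.17 CPM in 30FR, against 140 and 80.6 CPM in 21WL (-4.30 ± 0.57). UF3GT, a glycosyltransferase of anthocyanins, had 4.28 and 1.64 CPM in 30FR, against 50.8 and 29.2 CPM in 21WL (-3.77 ± 0.65). MYB75 (PAP1, AT1G56650), the activator of the late pathway genes, had 0.487 and 0.379 CPM in 30FR, against 14.4 and 5.83 CPM in 21WL (-4.51 ± 0.87, adjusted p = 0.0548 with the second libraries alone), and its partner TT8 fell by 3.11 on the log2 scale. GSTF12 (TT19), which carries anthocyanins to the vacuole, had 9.25 and 3.58 CPM in 30FR, against 76.2 and 42.1 CPM in 21WL (-3.21 ± 0.51). As in 404 of the 409 genes that fell, the groups did not overlap in any of these, and replicate 1 was the higher in both groups.

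Chalcone synthase and flavonol synthase, which also serve other flavonoids, moved less. On the adjusted p alone 15 of the 17 genes were lower, as were 2374 of all 20145 genes. Chalcone synthase (TT4) had 561 and 396 CPM in 30FR, against 702 and 690 CPM in 21WL (-0.54 ± 0.16, adjusted p = 0.0145), within the fold limit, and the flavonol synthase FLS1 stood at 155 and 113 CPM in 30FR, against 176 and 192 CPM in 21WL (-0.46 ± 0.14). The flavonol regulator MYB111 fell (-1.33 ± 0.27), while MYB12 had 26.5 and 19.4 CPM in 30FR, against 18.4 and 17.8 CPM in 21WL (0.34 ± 0.18, adjusted p = 0.178). Leaving out any 1 of the 4 libraries left 8 to 10 of the 17 genes lower and 0 higher.

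More enzyme genes, some of them of anthocyanin synthesis, were among the 10 largest falls. These falls were taken from called genes whose libraries did not overlap and whose higher mean was at least 5 CPM. GSTF6, a glutathione transferase, had 7.69 and 3.71 CPM in 30FR, against 144 and 74.7 CPM in 21WL (log2 fold change -4.27 ± 0.57). AT4G14090, a UDP-glycosyltransferase, had 3.65 and 1.69 CPM in 30FR, against 79.9 and 40.1 CPM in 21WL (-4.50 ± 0.71). It is UGT75C1, chosen for the flavonoid and anthocyanin list, but its name was not matched and it was not counted there. The acyltransferases AT5MAT (-3.85 ± 0.71), AT1G03940 (-3.83 ± 0.62) and AT1G03495 (-3.64 ± 0.60) fell alike. AT5MAT is a member of that list and is among the genes counted there as lower. CYP83A1, a cytochrome P450 of glucosinolate synthesis, had 0.730 and 0.464 CPM in 30FR, against 12.7 and 7.08 CPM in 21WL (-4.02 ± 0.79). That both 30FR libraries stood below both of 21WL was part of the rule that chose these genes.

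Of 22 clock genes 2 rose and 2 fell (9.09% each, against 2.08% and 2.03% of all genes). PRR7 and PRR9, morning repressors of the clock, rose: PRR7 had 153 and 162 CPM in 30FR, against 51.9 and 57.2 CPM in 21WL (log2 fold change 1.53 ± 0.25), and PRR9 rose by 1.71 ± 0.31. LHY, a morning MYB factor that PRRs repress, had 113 and 117 CPM in 30FR, against 245 and 246 CPM in 21WL (-1.09 ± 0.26, adjusted p = 0.00373, and 0.0847 with the second libraries alone), and RVE2, a related MYB factor, had 74.1 and 72.8 CPM in 30FR, against 162 and 164 CPM in 21WL (-1.15 ± 0.20). CCA1, the close relative of LHY, was not called and had 286 and 278 CPM in 30FR, against 160 and 183 CPM in 21WL (0.72 ± 0.26, adjusted p = 0.0481). The list's median was 0.15.

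Of 25 antenna and Rubisco small subunit genes, 1 rose and 1 fell by the full rule (4.0% each, against 2.08% and 2.03% of all genes). On the adjusted p alone 12 were higher and 1 lower, 16 stood above both 21WL libraries, and the median was 0.48. Over all 20145 genes the same counts were 2470 higher, 2374 lower and 5690 above both. LHB1B2, an antenna protein of photosystem II, had 11486 and 8543 CPM in 30FR, against 4511 and 4659 CPM in 21WL (log2 fold change 1.13 ± 0.17, and 0.89 without replicate 1 of 30FR). RBCS1B, a Rubisco small subunit, had 695 and 581 CPM in 30FR, against 1445 and 1713 CPM in 21WL (-1.31 ± 0.20). Both belong to families of near copies, so their counts are partial. In chlorophyll synthesis PORB, a protochlorophyllide reductase, was the only member of 11 called, with 186 and 149 CPM in 30FR, against 427 and 302 CPM in 21WL (-1.12 ± 0.19). It came to -0.98 without replicate 2 of 30FR and to -0.87 without replicate 1 of 21WL. Of the 11 genes 7 passed the adjusted p on the lower side, as did 2374 of all 20145 genes, and the median was -0.49.

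Among stress lists, 2 of 9 cold-regulated genes (22.2%) and 2 of 11 iron genes (18.2%) fell, against 2.03% of all genes, and 0 rose. The iron list holds ferritins, which store iron, as well as uptake genes. The cold-regulated dehydrin LTI30 had 18.4 and 19.7 CPM in 30FR, against 60.2 and 38.3 CPM in 21WL (log2 fold change -1.36 ± 0.34), with an adjusted p of 0.0761 without replicate 1 of 21WL. COR15B, also a cold gene, was called lower (-5.18 ± 1.81, adjusted p = 0.0399) on a single library: it had 0.292 and 0.0843 CPM in 30FR, against 14.4 and 0.0571 CPM in 21WL, so the groups overlapped, and without replicate 1 of 21WL its log2 fold change was 1.54 (adjusted p = 0.855). Then 0 of 9 cold genes were called. Of 15 abscisic acid genes CYP707A4, which breaks the hormone down, rose (2.25 ± 0.37). Of the iron genes FER3, a ferritin and not an uptake gene, had 50.4 and 42.3 CPM in 30FR, against 99.8 and 111 CPM in 21WL (-1.19 ± 0.20). IRT1, the root iron transporter, had 3.02 and 3.84 CPM in 30FR, against 9.34 and 26.7 CPM in 21WL (-2.42 ± 0.83, adjusted p = 0.0379, and 0.381 at most with 1 library left out). ADS1, a fatty acid desaturase, rose by 1.47 ± 0.28. No gene was called in the lists of jasmonate (19 kept), salicylic acid (9), sugar starvation (9) or the cell cycle (10). The flowering gene SOC1 (AGL20) was at 2.09 and 2.87 CPM in 30FR, against 5.71 and 4.68 CPM in 21WL (-1.05 ± 0.23), and pyruvate decarboxylase AT4G33070 of the low oxygen list at 2.04 and 0.548 CPM in 30FR, against 4.32 and 2.29 CPM in 21WL (-1.34 ± 0.47). SOC1 came to -0.85 without replicate 1 of 30FR and -0.92 without replicate 1 of 21WL, and AT4G33070 to -0.66 (adjusted p = 0.322) without replicate 2 of 30FR and -0.86 (adjusted p = 0.305) without replicate 1 of 21WL.

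Against the single treatments, the question was what the second signal added to the first. 30FR against 21FR, the effect of warmth within low R/FR, gave 497 genes higher (2.47%) and 503 lower (2.5%), and 30FR against 30WL, the effect of low R/FR within warmth, 87 higher (0.432%) and 39 lower (0.194%). These comparisons share the 30FR libraries with each other and with the main one. PIL1 had 20.4 and 24.8 CPM in 30FR, against 0.658 and 1.32 CPM in 30WL, 42.0 and 38.7 CPM in 21FR, with 0.519 and 0.686 CPM in 21WL. Its log2 difference of 30FR from 30WL was 4.43 ± 0.26, and that from 21FR was -0.84 ± 0.18 (adjusted p = 0.00125). DFR had 7.94 and 2.74 CPM in 30FR, against 17.1 and 8.60 CPM in 30WL, 144 and 108 CPM in 21FR, with 210 and 132 CPM in 21WL. HSP90.1 had 294 and 154 CPM in 30FR, against 220 and 1173 CPM in 30WL, 7.78 and 9.17 CPM in 21FR, with 13.8 and 12.9 CPM in 21WL. HSFA2, HSP101 and ERDJ3A were called lower in 30FR than in 30WL, a call that leans on replicate 2 of 30WL: HSFA2 had 15.5 and 6.32 CPM in 30FR, against 14.3 and 148 CPM in 30WL. Without that library 8 genes were called lower in place of 39.

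Some genes stood above both single treatments. EXPA8 had 177 and 136 CPM in 30FR, against 60.5 and 48.6 CPM in 30WL, 54.9 and 52.4 CPM in 21FR, with 35.3 and 30.7 CPM in 21WL, and was called higher in 30FR than in each. AT5G02540, an enzyme-like protein of the NAD(P)-binding Rossmann-fold superfamily, had 48.5 and 98.1 CPM in 30FR, against 1.90 and 4.48 CPM in 30WL, 10.5 and 5.51 CPM in 21FR, with 1.73 and 2.17 CPM in 21WL. YUC8, called against 30WL and just short of the fold limit against 21FR (0.99), had 20.4 and 21.6 CPM in 30FR, against 4.39 and 4.83 CPM in 30WL, 10.8 and 10.3 CPM in 21FR, with 5.02 and 3.31 CPM in 21WL. AT5G02540, XTH15, GH3.5, CKX6 and ADS1 were called above both single treatments too. Whether 30FR departed from the sum of the single responses on the log2 scale was tested as an interaction. No gene passed in either direction by edgeR's quasi-likelihood test (0% and 0% of those tested), the smallest adjusted p was 0.138, and 551 genes were above and 729 below the sum at an unadjusted p under 0.05. The likelihood ratio test called 2 higher and 1 lower, and DESeq2 3 and 1. The interaction was 0.82 ± 0.31 for EXPA8 (adjusted p = 0.743), 2.43 ± 0.83 for AT5G02540 (0.699) and 0.81 ± 0.39 for YUC8 (0.785). A missed threshold with 2 libraries a group does not show that the responses added up.

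The response was then set beside that of 1 and 6 h, which have their own 21WL libraries. 30FR against 21WL gave 710 genes higher (3.52%) and 596 lower (2.96%) at 1 h, and 412 higher (2.05%) and 324 lower (1.61%) at 6 h. Of the 420 genes that rose at 3 h, 246 were also called higher at 1 h (58.6% of the 3 h list and 34.6% of the 1 h list) and 203 at 6 h (48.3% and 49.3%). Of the 409 that fell, 142 were called lower at 1 h (34.7% and 23.8%) and 143 at 6 h (35.0% and 44.1%). At all 3 times 149 genes were higher and 74 lower, and 120 higher and 198 lower genes were called at 3 h and at neither 1 nor 6 h. PIL1 differed by 5.12 ± 0.27, 5.18 ± 0.29 and 4.70 ± 0.26 on the log2 scale at 1, 3 and 6 h.

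**Figure D4:**
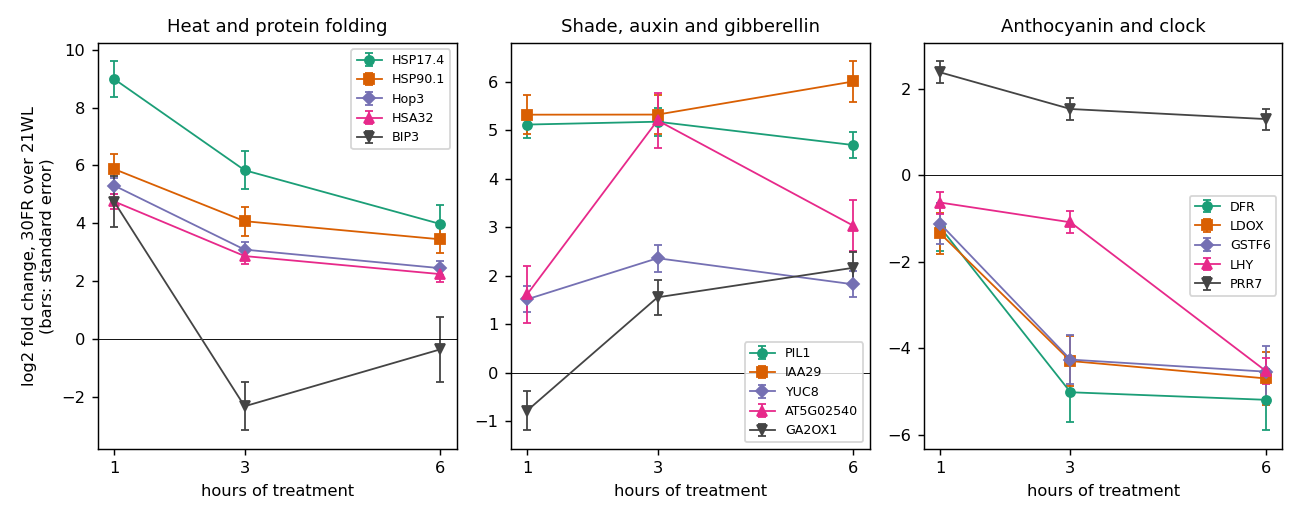
Log2 fold change of 30FR over 21WL (vertical axis) at 1, 3 and 6 h (horizontal axis) for 15 genes in 3 panels; bars are standard errors. Chaperone genes are highest at 1 h, PIL1 and IAA29 stay between 4.70 and 6.01, and DFR, LDOX and GSTF6 lie below -4 at 3 and 6 h.

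The difference between times was tested directly. The response was higher at 3 h than at 1 h in 50 genes (0.248%) and lower in 70 (0.347%). Hop3 had 161 and 123 CPM in 30FR at 3 h, against 716 and 664 CPM in 30FR at 1 h, while 21WL held 16.1 and 17.4 CPM at 3 h and 18.2 and 16.8 CPM at 1 h, a change of the response of -2.22 ± 0.35 (adjusted p = 0.00409). HSP17.4 had 75.9 and 36.5 CPM in 30FR at 3 h, against 973 and 707 CPM in 30FR at 1 h, but its change of -3.16 ± 1.18 did not pass (adjusted p = 0.186). BIP3, an ER-resident HSP70 of the unfolded protein response, differed by -2.34 ± 0.83 at 3 h and by 4.74 ± 0.88 at 1 h (change -7.08 ± 1.23, adjusted p = 0.00585). DFR was at 84.4 and 118 CPM in 30FR at 1 h, against 240 and 227 CPM in 21WL, and so its response of -5.02 at 3 h was lower by 3.82 ± 0.85 (adjusted p = 0.0269). That call was lost in 5 of the 8 fits that left out 1 library, with an adjusted p of 0.109 at most. GA2OX1 differed by 1.56 ± 0.36 at 3 h and by -0.78 ± 0.41 at 1 h (adjusted p of the change 0.0346, lost in 4 of 8 such fits).

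Between 3 and 6 h, 26 genes had a higher response at 6 h (0.129%) and 11 a lower one (0.0546%). LHY was at 9.81 and 5.32 CPM in 30FR at 6 h, against 175 and 173 CPM in 21WL at 6 h, and its response of -4.54 ± 0.31 was lower by 3.44 ± 0.39 than at 3 h (adjusted p = 0.000266), a call that held in all 8 fits that left out 1 library. DFR and LDOX differed by -5.20 ± 0.71 and -4.70 ± 0.61 at 6 h, and neither change from 3 h passed (adjusted p = 0.975 and 0.915).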

How the data were processed

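RNA of whole seedlings was sequenced from 32 samples, 2 in each of 16 groups. The authors aligned reads to TAIR10 with STAR 2.5.4, assigned them to genes by strand with HTSeq 0.6.0 and deposited raw counts; reads mapping to several places were not counted. Their own normalized CPM table was not used here. All columns had a sample (0 without). The 5 HTSeq summary lines were left out: reads without a gene were 2.47 to 3.09% and reads of several places 13.6 to 27.4% of the 4 libraries' totals. Counts were tested with edgeR 4.0.16 (R 4.3.3, TMM, quasi-likelihood) in 1 model of 16 groups without a replicate term. CPM use TMM-scaled library sizes; ± is the SE of the log2 fold change. The 4 libraries held 12012774 to 24107071 counts, which limits precision at low levels. Replicates are labelled biological replicates.

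Named genes were the 10 with the largest rise and fall among called genes whose libraries did not overlap and whose higher mean was at least 5 CPM, up to 3 called members of a list in each direction, up to 5 genes a direction of each difference between times, and known responders; other members were named after their values were seen. The comparison and the lists were chosen with earlier results of these data known. List members were matched to RefSeq (TAIR10.1) by identifier and symbol, and 10 were not matched. Motifs were searched in windows of the same annotation. Scripts were tested on simulated data. Alternatives were the likelihood ratio test, DESeq2 1.42.0, its size factors, no filter, fewer libraries, no fold limit, a replicate block and each library left out; nuclear genes alone and the second libraries alone were chosen after seeing the data. A result on 1 gene is not reported here.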

Additional observations from a re-analysis of the deposited data

Results flagged for a closer look

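The response to 30FR differed between times by the test of the difference itself in 50 genes that were higher and 70 that were lower at 3 h than at 1 h, and in 26 genes that were higher and 11 that were lower at 6 h than at 3 h. The values below are the log2 response at the later time minus that at the earlier one.

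From 1 to 3 h the response was called lower in 3 of 19 genes of the HSP70, HSP90 and HSP101 list and in 1 of 14 ER chaperone genes. It was called lower in 0 of 5 sHSP and 0 of 18 HSF genes, and in 0.347% of all genes. The median changes of these 4 lists were -0.77, -0.67, -1.97 and -0.4 in that order, beside 0.01 for all genes. The sHSP list thus had the largest median drop of the 4, although no member was called. BIP3 differed by -7.08, Hop3 by -2.22, HSA32 by -1.89 and Hrd1B, a RING-type protein outside these lists, by -1.52. The anthocyanin genes DFR, LDOX and the transferase GSTF6 differed by -3.82, -2.95 and -3.14. PORB differed by -1.51, the dehydrin LTI30 by -1.91 and the clock-related RVE2 by -1.16. Values of less studied genes were -1.41 for AT1G23180 (ARM repeats), -1.04 for AT1G28610 (lipase-like), -1.05 for AT3G23080, -1.12 for AT4G08230 (glycine-rich) and -1.26 for AT4G29520.

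Genes whose response was higher at 3 h than at 1 h were AT5G02540 by 3.59, GA2OX1 by 2.34, AT3G03130 by 1.22, the aldolase FBA5 by 1.20, sks15 by 1.15 and the RNA-binding CCR1 by 1.12. With 1 library left out in turn, AT5G02540, LDOX, LTI30 and RVE2 lost the call in 7 of 8 fits, GSTF6 and DFR in 5, GA2OX1 in 4, HSA32 and AT1G28610 in 3, sks15 and CCR1 in 2 and AT3G23080 in 1. The other genes named for this difference kept it in all 8.

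From 3 to 6 h the response was lower by -3.44 in LHY, by -1.45 in GSTF4, by -1.33 in the antenna gene CAB3, by -1.38 in AT4G30450 and by -1.31 in AT5G05960. It was higher by 2.88 in AT1G07050, a CCT-motif gene, by 1.77 in COL9, by 1.52 in AT1G28610, by 1.35 in the clock gene ELF4 and by 1.08 in AT5G02940. AT4G30450 lost the call in 5 of 8 such fits, AT1G07050 and CAB3 in 4, GSTF4 and AT5G02940 in 3, ELF4 in 2 and AT5G05960 in 1. LHY, COL9 and AT1G28610 kept it in all 8, but COL9 and AT1G28610 had an adjusted p of 0.0617 with the 3 and 6 h libraries alone.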

How the results depend on the processing

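For 30FR against 21WL the counts of 420 higher and 409 lower genes moved beyond 1.5-fold when the 4 libraries were fitted alone (269 and 235), when the fold limit was dropped (2470 and 2374) and, for the higher genes, with the second libraries alone (266). Leaving out 1 library gave 314 to 493 higher and 345 to 586 lower. Against 21FR (497 and 503) dropping the fold limit gave 2874 and 2956, and leaving out 1 library 390 to 526 higher and 332 to 643 lower, the lowest without replicate 1 of 21FR. Against 30WL (87 and 39) dropping it gave 228 and 129, and the 3 h libraries alone gave 10 lower. Leaving out 1 library there gave 48 to 117 higher, the lowest without replicate 2 of 30WL, and 8 to 196 lower, 8 without replicate 2 of 30WL and 196 without replicate 2 of 30FR. The interaction (0 and 0) gave 2 and 1 genes by the likelihood ratio test, 3 and 1 by DESeq2, and 0 to 4 higher and 0 to 84 lower with 1 library left out, 84 without replicate 2 of 30FR.

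For 3 h minus 1 h (50 and 70) the likelihood ratio test gave 103 and 138, DESeq2 107 lower, the 1 and 3 h libraries alone 25 higher and no fold limit 140 and 150. Leaving out 1 library gave 12 to 112 higher and 23 to 179 lower; the 12 came from dropping replicate 2 of the 1 h controls, the 112 and the 23 from dropping replicates 2 and 1 of the 3 h controls, and the 179 from dropping replicate 2 of 30FR at 3 h. For 6 h minus 3 h (26 and 11) the likelihood ratio test gave 63 and 32, DESeq2 53 and 30, no expression filter 43 and 17, the 3 and 6 h libraries alone 1 and 1 and no fold limit 44 and 17. Leaving out 1 library gave 2 to 115 higher and 2 to 27 lower, with 2 and 2 without replicate 1 of 21WL and 115 and 27 without replicate 2 of 30FR, both at 3 h. The causes were not tested.

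COR15B ran over -6.26 to 1.54 with 1 library left out, and turned round to 1.54 without replicate 1 of 21WL and to 0.50 with the second libraries alone. Of 89 named genes called against 21WL, the likelihood ratio test, DESeq2's size factors, no filter and nuclear genes alone kept all, DESeq2 lost CKX1, the 3 h libraries alone and the 4 libraries alone lost 8 each (of 88 and 87 with a value), and leaving out 1 library lost 8 to 15. The second libraries alone lost 27 besides COR15B, among them PIF4, LHY, PAP1, ACS11, XTR6 and ARR15. Where a group kept 1 library, that library was assumed to vary like those of the other groups. With a replicate block the counts were 420 and 417 against 21WL, 500 and 515 against 21FR, 88 and 35 against 30WL, 61 and 78 for 3 h minus 1 h and 28 and 14 for 6 h minus 3 h. Same-numbered libraries of the 4 groups at 3 h correlated by -0.083 to 0.317 in their deviations. The highest value, 0.317, was that of 30FR with 21WL, the groups of the main comparison. The numbers were not read as pairs. Genes held by few counts, such as ARR15 and BIP3, are limited by depth.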
